A study of Mus musculus with 12 samples.

Results

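The genes described are 47 mouse genes of ribosome biogenesis, chosen by symbol from a fixed list and found as 47 of the 19910 rows of a table of gene counts. They cover RNA polymerase I and its regulators (9 genes), the box C/D and H/ACA snoRNPs (4 and 5 genes), factors of the small subunit (12) and of the large subunit (14), and 3 abundant nucleolar proteins. The counts come from RNA-seq of bone marrow cells of female C57BL/6J mice aged 6 to 10 weeks, labelled murine leukemia cells, in 12 libraries of 4 groups of 3. Every group carried a pair of retroviral vectors: both vectors empty (the empty group), SETBP1 D868N with an empty vector (SETBP1), an empty vector with NRAS G12D (NRAS), or SETBP1 D868N with NRAS G12D (both mutants). Expression was thus driven by a retrovirus rather than by the endogenous gene, and the labels do not say whether replicates were separate mice or transductions, so p-values measure only the spread between these libraries, which may be technical.

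A ribosome is built in the nucleolus, where RNA polymerase I copies the ribosomal DNA into 1 long precursor RNA. Box C/D snoRNPs methylate that precursor and H/ACA snoRNPs convert chosen uridines to pseudouridine, while assembly factors fold and cut it into the RNAs of the small and large subunits. Growing and dividing cells make more ribosomes, and MYC and RAS signalling are well known to raise production, in blood cells as elsewhere. SETBP1 D868N alters the part of SETBP1 that marks the protein for degradation, and NRAS G12D keeps NRAS in its active state.

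Promoter windows from RefSeq (build GRCm38.p6, 250 bases before to 50 after each annotated start) were matched by symbol for 41 of the 47 genes. Npm1, Bop1, Fbl, Rrs1, Rrp12 and Tcof1 had no window there. The 250 bases before the start are printed for 4 genes that hold the E-box CACGTG, a sequence that MYC with its partner MAX is known to bind, and that stand for different patterns over the groups: Nop2, higher with either mutant; Imp4, with the lowest p for the second mutant; Rrn3, an initiation factor low in SETBP1 replicate 3; and Utp18, higher with NRAS. Capitals mark CACGTG and the ETS core CCGGAAG or its reverse complement CTTCCGG, and all sequences run 5′ to 3′ on the gene's strand. The windows lie at chr6:125131633-125131882 on the plus strand (Nop2), chr1:34439579-34439828 on the plus strand (Imp4), chr16:13780449-13780698 on the plus strand (Rrn3) and chr11:93885767-93886016 on the minus strand (Utp18).
Nop2: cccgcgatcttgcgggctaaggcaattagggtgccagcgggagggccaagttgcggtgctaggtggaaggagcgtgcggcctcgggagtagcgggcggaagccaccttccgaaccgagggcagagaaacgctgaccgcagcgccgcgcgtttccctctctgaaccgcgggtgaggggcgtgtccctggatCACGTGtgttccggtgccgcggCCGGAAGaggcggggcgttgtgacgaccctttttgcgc
Imp4: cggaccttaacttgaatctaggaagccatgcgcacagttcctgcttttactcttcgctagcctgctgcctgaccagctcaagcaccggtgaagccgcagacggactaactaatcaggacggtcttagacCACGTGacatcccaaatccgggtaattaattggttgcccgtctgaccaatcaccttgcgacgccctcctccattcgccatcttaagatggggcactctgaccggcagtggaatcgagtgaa
Rrn3: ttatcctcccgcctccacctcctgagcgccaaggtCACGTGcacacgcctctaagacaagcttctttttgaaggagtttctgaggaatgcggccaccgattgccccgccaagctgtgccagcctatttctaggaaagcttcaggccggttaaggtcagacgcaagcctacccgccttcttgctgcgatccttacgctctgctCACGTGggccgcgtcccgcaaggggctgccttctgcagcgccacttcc
Utp18: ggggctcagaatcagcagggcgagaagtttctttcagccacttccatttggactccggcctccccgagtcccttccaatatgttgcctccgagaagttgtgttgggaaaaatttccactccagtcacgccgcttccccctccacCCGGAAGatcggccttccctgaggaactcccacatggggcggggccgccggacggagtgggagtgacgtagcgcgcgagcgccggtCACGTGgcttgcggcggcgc

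In the whole windows of 300 bases, searched on both strands, CACGTG occurred in 8 of the 41 genes (19.5%): Rrn3, Mybbp1a, Imp4, Utp18, Utp20, Wdr43, Pes1 and Nop2. It occurred in 12% of the 8836 tested genes with a window and in 8.09% of all 27025 genes with one. The ETS core occurred in 16 of the 41 (39.0%), against 21.0% of the tested genes, and the GC box GGGCGG in 31 (75.6%), against 68.8%. Among 96 other genes of ribosome production with a window, the shares were 17.7% for CACGTG, 40.6% for the ETS core and 64.6% for the GC box. These matches are letters in a window and not measured binding.

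Each library held 7085894 to 8864919 counts, and the members had mean counts of 220.7 to 15178, with a lowest single count of 97. All 47 passed the filter on low counts that left 10993 genes tested. SETBP1 replicate 3 stood apart from its group, with correlations of 0.946 and 0.953 to the other SETBP1 libraries where all other pairs within a group gave 0.984 to 0.991. Haematopoietic markers were measured in every library, such as Ptprc (175 to 329 normalised CPM) and Spi1 (365 to 541). Cd34 ran from 86.5 to 283 over the libraries and Kit from 11.8 to 76.8. Lymphoid and erythroid lists were low. The 6 B cell genes summed to 7.93 to 21.6 normalised CPM, most of it Cd79b, with Pax5 listed at 0. The 6 T cell genes summed to 4.34 to 10.7, most of it Lck, with Cd3e and Cd8a at 0, and the 6 erythroid genes to 1.21 to 10.8, with Hbb-bs, Hba-a1 and Hba-a2 at 0. Levels called normalised CPM are counts relative to a library's total, rescaled with edgeR's TMM factors. The 12 late neutrophil genes summed to 11242 to 12673 normalised CPM in the empty group, 5184 to 7382 with SETBP1, 5896 to 7556 with NRAS and 1993 to 2515 with both. The 8 mast cell and basophil genes summed to 1414 to 1446, 768 to 1000.4, 548 to 936 and 349.9 to 478 in the same order of groups. The 6 haematopoietic genes summed to 15793 to 17440, 9736 to 12407, 7517 to 7748 and 4371 to 4816. Most of that sum was Mpo, which ran from 2799 to 16137 over the libraries. The list did not fall as a whole: with both mutants 3 of the 6 rose and 3 fell against the empty group (median log2 change 0.05). Of all tested genes, 20.8% rose and 19.8% fell in that comparison. The sums of other lists did not fall in every mutant group. The 10 monocyte and macrophage genes summed to 4269 to 4703, 4690 to 5926, 4054 to 4394 and 3754 to 4260 in the same order. Ly6c2 was the largest part of that sum, from 1998 to 3921 over the libraries. With both mutants 4 of the 10 rose and 2 fell against the empty group (median log2 change 0.23). The 5 megakaryocyte genes summed to 176 to 207, 221 to 470, 117 to 164 and 173 to 204. The sum hides the single genes, as Pf4 alone ran from 53.6 to 369. With both mutants 4 of the 5 fell and 1 rose against the empty group (median log2 change -2.52). With NRAS 3 fell and none rose (median -1.65), where 15.5% of tested genes fell. SETBP1 replicate 3 had the highest sum in the monocyte and macrophage list and in the megakaryocyte list. In bulk RNA, fewer cells of a type and less RNA per cell cannot be told apart, and the part of these shifts in the results on ribosome biogenesis was not tested.

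Ribosome biogenesis RNAs were lowest in the empty group and highest with NRAS or with both mutants. Summed over the 47 genes, the level was 7936, 8107 and 8021 normalised CPM in the empty libraries and 9578, 9521 and 8858 with SETBP1. It was 11801, 11639 and 11810 with NRAS and 12400, 12838 and 12218 with both mutants. The libraries of the 4 groups did not overlap on this sum, and each SETBP1 library lay between the empty and the NRAS libraries. The 3 nucleolar genes weigh most in it, with a mean of 2336 of 8021 in the empty group. The separation did not hold in every role. Polymerase I genes summed to 841 to 903 in the empty libraries, 718 to 1003 with SETBP1, 1225 to 1339 with NRAS and 1250 to 1318 with both. In the box C/D and H/ACA genes, too, NRAS and double-mutant libraries overlapped. In the H/ACA genes SETBP1 replicate 2 (1237) also lay above NRAS replicate 3 (1211). A test of any difference among the 4 groups, at a Benjamini-Hochberg adjusted p of 0.05 in edgeR's quasi-likelihood F test, called 43 of the 47 genes, where it called 52.9% of all tested genes. The 4 that did not pass were Polr1e, a subunit of RNA polymerase I (adjusted p = 0.184), Nop10, a core H/ACA protein (0.106), Mphosph10, of the small subunit processome (0.478), and Utp20, a very long scaffold of the same complex (0.0984).

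**Figure D1:**
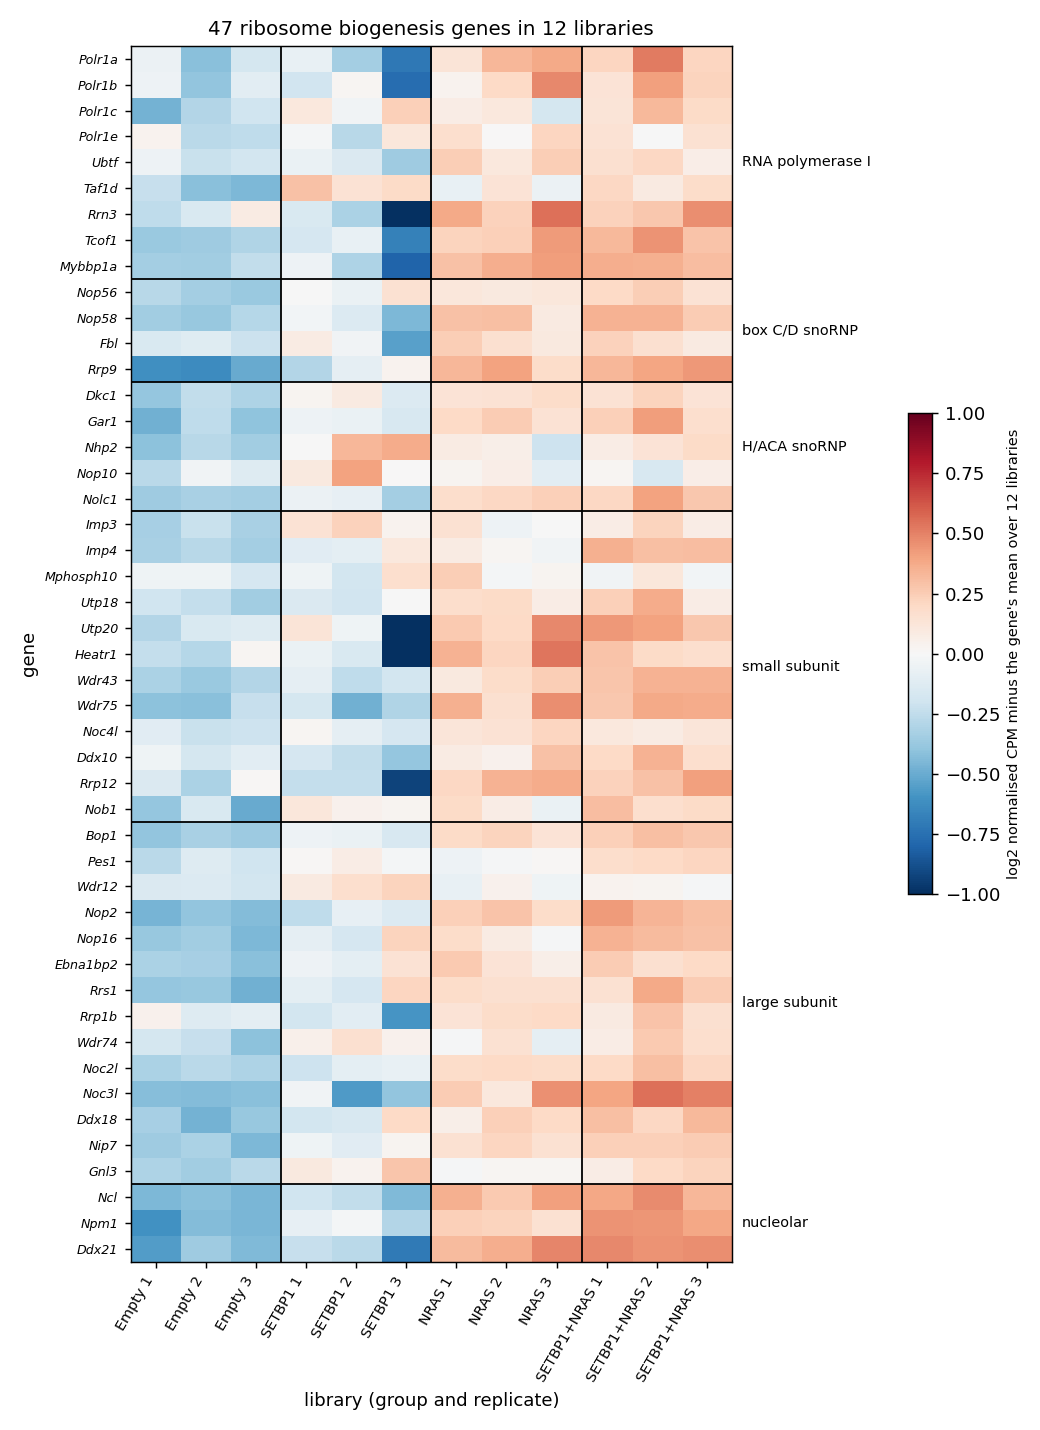
Level of each of the 47 genes (rows, grouped by role) in each of the 12 libraries (columns), as log2 normalised CPM minus the gene's mean over the libraries, with colours ending at 1 in either direction. The 3 empty libraries are blue for most genes and the NRAS and double-mutant libraries red, and SETBP1 replicate 3 holds the darkest blue cells.

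Means of the groups rose in the order empty, SETBP1, NRAS, both in 24 of the 47 genes. In 10 genes the SETBP1 mean lay below the empty mean, and in 5 it was the highest of all. The ratio of the highest to the lowest group mean ran from 1.12 for Mphosph10 to 1.96 for Rrp9. The median coefficient of variation within a group was 4.79% in the empty group, 10.0% with SETBP1, 6.13% with NRAS and 4.77% with both. Pairs of members had a median Pearson r of 0.72 over the 12 libraries (1081 pairs, from -0.50 to 0.99); the pairs share libraries and groups. Per kilobase of coding sequence, Npm1 had the highest mean level (1376 normalised CPM per kilobase), followed by Ncl (922), and Utp20 the lowest (4.25).

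With NRAS G12D alone, 37 of the 47 genes rose against the empty group and none fell, where 17% of all tested genes rose and 15.5% fell. The median log2 change of the 47 was 0.48, against -0.01 over all genes, and every fitted change was above 0. NRAS libraries all lay above all empty libraries in 45 of the 47 genes, as they did in 28.4% of tested genes. By role, 6 of 9 polymerase I genes, 3 of 4 box C/D, 4 of 5 H/ACA, 9 of 12 small subunit, 12 of 14 large subunit and 3 of 3 nucleolar genes rose. With both mutants the counts were the same in each role, 37 of 47 in all (median log2 change 0.54), where 20.8% of tested genes rose and 19.8% fell. Both comparisons use the same empty libraries. Without SETBP1 replicate 3, a library of neither comparison, 44 members rose in each comparison, where 24.4% (NRAS) and 27.1% (both) of tested genes did.

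The 3 nucleolar proteins had the largest median change of any role, 0.78 with NRAS. Ncl (GRCm38 chr1:86344719-86359400, minus strand) encodes nucleolin, which binds ribosomal DNA and its transcript. It stood at 1382, 1416 and 1380.4 normalised CPM in the empty libraries and 1646, 1593 and 1389 with SETBP1. It stood at 2413, 2261 and 2512 with NRAS and 2477, 2623 and 2378 with both, so that all NRAS-carrying libraries lay above all others. The log2 change with NRAS was 0.78 (SE 0.08, adjusted p = 3.71e-06), or 1.72-fold, and with SETBP1 alone 0.15 (SE 0.08, adjusted p = 0.184).

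Npm1 (GRCm38 chr11:33152287-33163206, minus strand) encodes nucleophosmin, a chaperone of the granular nucleolus. Its level was 768, 865 and 854 normalised CPM in the empty libraries, 1105, 1154 and 954 with SETBP1, 1378, 1364 and 1302 with NRAS and 1599, 1592 and 1529 with both. The 4 groups did not overlap and were ordered empty, SETBP1, NRAS, both. Log2 changes were 0.37 (SE 0.08, adjusted p = 0.00985) with SETBP1, 0.70 (SE 0.08, adjusted p = 1.36e-05) with NRAS and 0.92 (SE 0.08, adjusted p = 6.23e-07) with both. Npm1 is known to have processed pseudogenes, so its counts are uncertain to the extent that reads were shared. Ddx21 (GRCm38 chr10:62580251-62602281, minus strand) encodes an RNA helicase of the nucleolus. It stood at 106, 122 and 115 normalised CPM in the empty libraries, 133, 129.6 and 95.6 with SETBP1, 194, 201 and 219 with NRAS and 218, 213 and 216 with both. Its log2 change with NRAS was 0.84 (SE 0.11, adjusted p = 5.25e-05), and the SETBP1 libraries overlapped the empty ones.

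**Figure D2:**
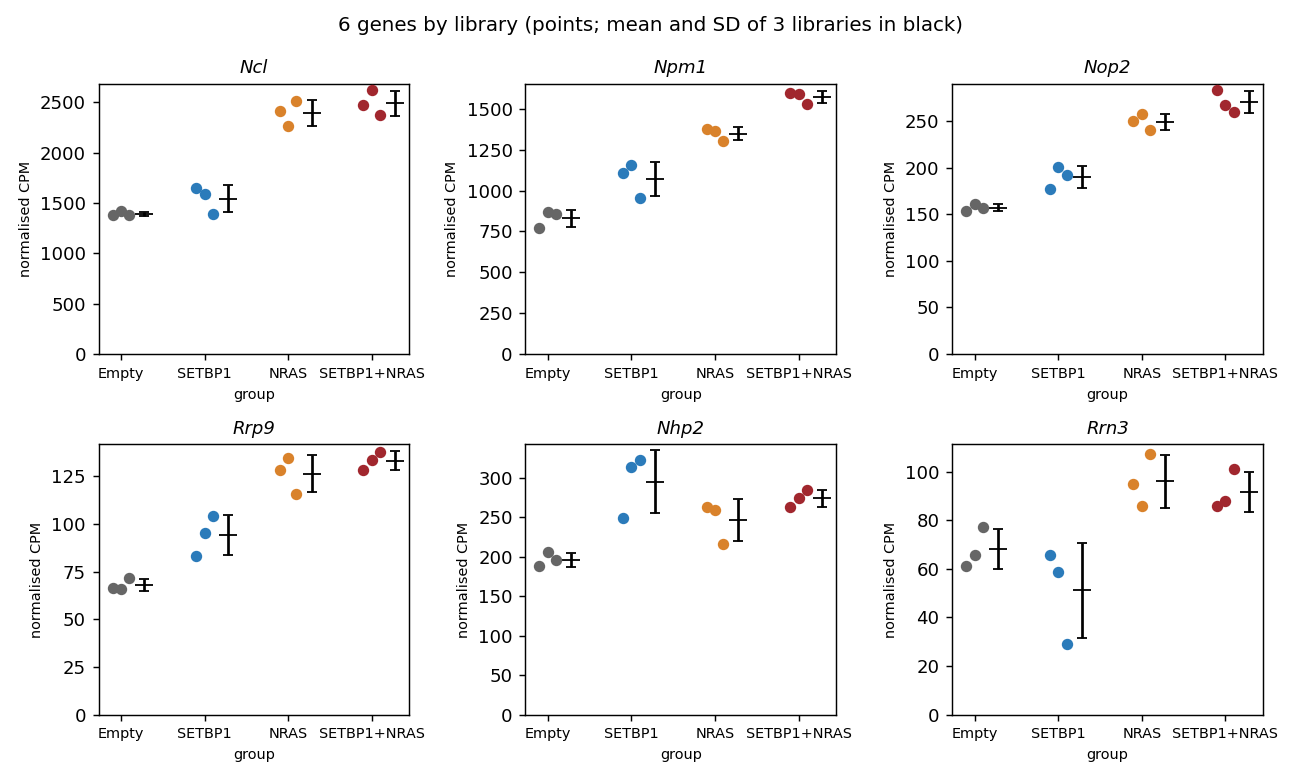
Normalised CPM of 6 genes in each of the 12 libraries (points, coloured by group), with the mean and SD of each group of 3 in black and the axis starting at 0. Ncl separates the groups with and without NRAS, Npm1 and Nop2 step through 4 levels, Rrp9 reaches 1.96 times its lowest group mean, Nhp2 is highest with SETBP1 alone, and Rrn3 has a low point of 28.9 in SETBP1 replicate 3.

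RNA polymerase I genes rose with NRAS in 6 of 9 cases (Polr1a, Polr1c, Ubtf, Taf1d, Tcof1 and Mybbp1a). Tcof1 encodes treacle, which links polymerase I transcription to early RNA processing. It stood at 151, 153 and 159 normalised CPM in the empty libraries, 174, 185 and 123 with SETBP1, 229, 231 and 263 with NRAS and 245, 267 and 239 with both. The log2 change with NRAS was 0.64 (SE 0.12, adjusted p = 0.0012), and the lowest of the SETBP1 libraries, replicate 3, lay below all empty ones. Mybbp1a encodes a nucleolar MYB-binding protein that associates with polymerase I. Its normalised CPM were 276, 275 and 295 in the empty libraries, 338, 282 and 200.3 with SETBP1, 429, 449 and 466 with NRAS and 449, 448 and 434 with both. The log2 change with NRAS was 0.67 (SE 0.13, adjusted p = 0.00163), and again the SETBP1 replicates straddled the empty level.

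Rrn3 (GRCm38 chr16:13780708-13814839, plus strand) encodes the factor that makes polymerase I competent to start. It stood at 61.2, 65.8 and 77.3 normalised CPM in the empty libraries and 65.6, 58.8 and 28.9 with SETBP1. With NRAS it stood at 94.9, 85.8 and 107 and with both at 85.7, 87.8 and 101. In the fit to all 12 libraries it passed the test of any difference among the groups (adjusted p = 0.0105). Of the pairwise comparisons it passed only both mutants against SETBP1, with a log2 change of 0.84 (SE 0.22, adjusted p = 0.00738). Against the empty group the changes were -0.41 (SE 0.22, adjusted p = 0.201) with SETBP1 and 0.50 (SE 0.22, adjusted p = 0.095) with NRAS. Without SETBP1 replicate 3 the SETBP1 change was -0.13 (SE 0.12, adjusted p = 0.502), and that of both mutants against SETBP1 was 0.56 (SE 0.12, adjusted p = 6.03e-04). In that fit Rrn3 also passed with NRAS, 0.50 (SE 0.10, adjusted p = 4.67e-04), and with both mutants, 0.43 (SE 0.10, adjusted p = 0.00143). Taf1d, a subunit of the promoter-binding complex SL1, followed another pattern. It stood at 40.3, 35.3 and 34.5 normalised CPM in the empty libraries, 57.8, 52.1 and 54 with SETBP1, 44.9, 52.1 and 45.4 with NRAS and 54.5, 50.3 and 53.8 with both. All mutant libraries lay above all empty ones, with log2 changes of 0.57 (SE 0.10, adjusted p = 0.00491) with SETBP1 and 0.37 (SE 0.10, adjusted p = 0.0138) with NRAS.

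In the box C/D group, Rrp9 (GRCm38 chr9:106475963-106485424, plus strand), a protein of the U3 particle that starts the cutting of the precursor, had the largest NRAS change of any member. It stood at 66.6, 65.9 and 71.8 normalised CPM in the empty libraries, 83.2, 95.4 and 104 with SETBP1, 128, 135 and 116 with NRAS and 128, 134 and 138 with both. The empty libraries were lowest, the SETBP1 libraries intermediate, and the NRAS and double-mutant libraries overlapped. Log2 changes were 0.47 (SE 0.09, adjusted p = 0.00825) with SETBP1, 0.89 (SE 0.09, adjusted p = 9.49e-06) with NRAS and 0.97 (SE 0.09, adjusted p = 2.60e-06) with both. Nop56, a core box C/D protein, stood at 350.2, 336 and 328 normalised CPM in the empty libraries, 424, 407 and 472 with SETBP1, 459, 455 and 459 with NRAS and 489, 504 and 471 with both. The change with NRAS was 0.44 (SE 0.07, adjusted p = 2.49e-04) and with SETBP1 0.36 (SE 0.07, adjusted p = 0.00608), and no mutant library reached down to the empty ones. Nop58, its partner, rose with NRAS by 0.57 (SE 0.10, adjusted p = 5.62e-04); fibrillarin (Fbl), the methyltransferase of the particle, had 0.33 (SE 0.13, adjusted p = 0.0586). Without SETBP1 replicate 3, Fbl passed with NRAS at the same fold, 0.33 (SE 0.07, adjusted p = 6.67e-04).

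The H/ACA group held the gene with the largest SETBP1 change. Nhp2 (GRCm38 chr11:51619735-51623714, plus strand), a core H/ACA protein, stood at 188, 205 and 196 normalised CPM in the empty libraries and 249, 313 and 323 with SETBP1. It stood at 264, 259 and 215 with NRAS and 263, 275 and 284 with both. Log2 changes were 0.59 (SE 0.10, adjusted p = 0.00418) with SETBP1, 0.33 (SE 0.10, adjusted p = 0.025) with NRAS and 0.48 (SE 0.10, adjusted p = 0.00188) with both. The SETBP1 libraries lay above the empty ones and overlapped those with NRAS. Nolc1, a phosphoprotein that accompanies snoRNPs through the nucleolus, stood at 295, 302 and 299.6 normalised CPM in the empty libraries, 363, 359 and 299.7 with SETBP1, 427, 437 and 448 with NRAS and 436, 502 and 457 with both. It rose with NRAS by 0.55 (SE 0.08, adjusted p = 1.54e-04), and 1 SETBP1 library lay among the empty ones. Dkc1, the pseudouridine synthase, and Gar1 rose with NRAS by 0.47 (SE 0.07, adjusted p = 2.26e-04) and 0.58 (SE 0.09, adjusted p = 1.99e-04), while Nop10 had 0.14 (SE 0.11, adjusted p = 0.349).

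Of the small subunit factors, 9 of 12 rose with NRAS, and Ddx10, Mphosph10 and Utp20 did not pass. Wdr43, a subunit of the processome that joins polymerase I transcription to cutting, stood at 208, 201 and 213 normalised CPM in the empty libraries, 244, 218 and 229 with SETBP1, 279, 296 and 309 with NRAS and 316, 330.1 and 331 with both. The groups did not overlap, in the order empty, SETBP1, NRAS, both. Its log2 change with NRAS was 0.51 (SE 0.07, adjusted p = 7.34e-05) and with SETBP1 0.15 (SE 0.07, adjusted p = 0.138). Wdr75, of the same subcomplex, had the largest NRAS change of the role, 0.68 (SE 0.10, adjusted p = 1.88e-04). Utp20 stood at 27.5, 30.4 and 30.9 normalised CPM in the empty libraries, 36.9, 32.8 and 11.5 with SETBP1, 40.4, 38.8 and 47 with NRAS and 45.6, 44.5 and 40.6 with both. Its fitted NRAS change of 0.51 (SE 0.28, adjusted p = 0.184) was as large as that of Wdr43 with a wider SE, and SETBP1 replicate 3 was its lowest library. Without that library the Utp20 change with NRAS was 0.51 (SE 0.11, adjusted p = 5.12e-04).

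Large subunit factors rose with NRAS in 12 of 14 cases, all but Wdr12 and Rrp1b. Nop2 (GRCm38 chr6:125131909-125144753, plus strand), a methyltransferase of the large subunit RNA known as a proliferation antigen, stood at 153, 161 and 157 normalised CPM in the empty libraries and 177, 200.3 and 192 with SETBP1. It stood at 249.9, 257 and 241 with NRAS and 284, 268 and 260.3 with both. The 4 groups did not overlap, as for Npm1. Log2 changes were 0.27 (SE 0.07, adjusted p = 0.021) with SETBP1, 0.67 (SE 0.07, adjusted p = 7.59e-06) with NRAS and 0.79 (SE 0.07, adjusted p = 9.56e-07) with both. Noc3l, which escorts the pre-ribosome within the nucleus, stood at 20.4, 20.2 and 20.4 normalised CPM in the empty libraries, 26.6, 18.4 and 20.7 with SETBP1, 32.5, 29.4 and 37.5 with NRAS and 35.9, 40.1 and 38.7 with both. It rose with NRAS by 0.71 (SE 0.14, adjusted p = 0.00196) and with both by 0.91 (SE 0.14, adjusted p = 1.91e-04). Its partner Noc2l stood at 353, 364 and 355 normalised CPM in the empty libraries, 379.6, 410.4 and 417 with SETBP1, 499.9, 504 and 498 with NRAS and 505, 541 and 508 with both. Noc2l libraries of a group lay close together, and the NRAS change was 0.49 (SE 0.06, adjusted p = 4.34e-05). The members of the PeBoW complex did not move alike in size. Bop1 rose with NRAS by 0.55 (SE 0.06, adjusted p = 1.89e-05) and Pes1 by 0.18 (SE 0.07, adjusted p = 0.0486), while Wdr12 had 0.13 (SE 0.07, adjusted p = 0.145).

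**Figure D3:**
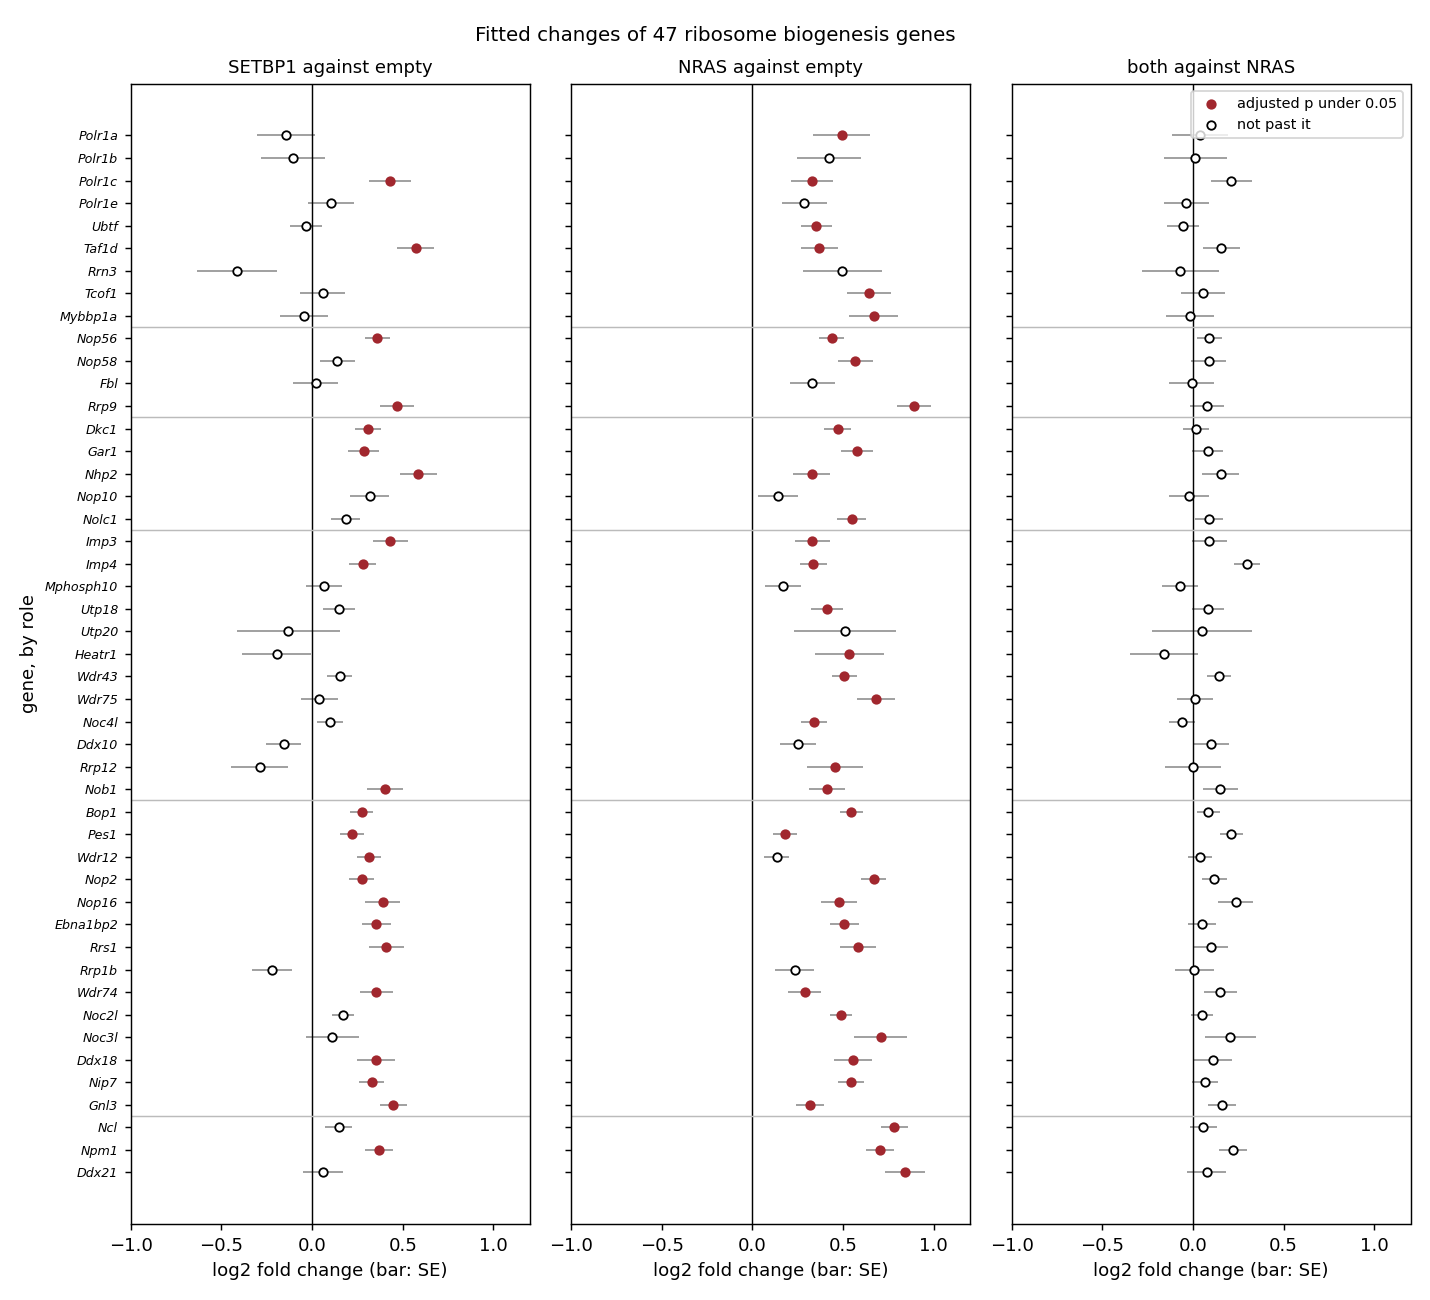
Log2 fold changes (points) with their SE (bars) of the 47 genes, by role from top to bottom, for SETBP1 against empty, NRAS against empty and both mutants against NRAS; filled points have an adjusted p under 0.05. All points of the NRAS panel lie above 0, filled points number 22, 37 and 0, and the SETBP1 panel spreads to both sides.

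With SETBP1 D868N alone, 22 of the 47 genes rose against the empty group and none fell, where 8.31% of all tested genes rose and 6.55% fell. The median log2 change was 0.19, against -0.01 over all genes, and 37 of 47 fitted changes were above 0. Large subunit factors made up 11 of the 22, with 3 H/ACA, 3 small subunit, 2 polymerase I and 2 box C/D genes and Npm1. After Nhp2, Taf1d and Rrp9, the largest change was in Gnl3, nucleostemin, which stood at 146, 142 and 149.8 normalised CPM in the empty libraries and 194, 185 and 219 with SETBP1 (0.45, SE 0.08, adjusted p = 0.00375). Wdr12 rose with SETBP1 and passed in no other pairwise comparison in the fit to all 12 libraries. It stood at 143, 144 and 139 normalised CPM in the empty libraries, 169, 178 and 185 with SETBP1, 151, 163 and 154 with NRAS and 163, 162 and 157 with both (0.32, SE 0.07, adjusted p = 0.00968 with SETBP1). A fit to the 6 SETBP1 and empty libraries alone called none of the 47 (and 1.03% of all genes), and leaving out empty replicate 1 or empty replicate 3 left 9 or 6 called (and 4.44% or 3.5% of all genes), with medians of 0.19 in all 3 fits. Without SETBP1 replicate 3, 25 rose, 21 of them among the 22, where 7.61% of tested genes rose.

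SETBP1 replicate 3 was not lower in every member. It stood under 0.75 times the mean of the other SETBP1 libraries in 11 genes (Polr1a, Polr1b, Rrn3, Tcof1, Mybbp1a, Fbl, Utp20, Heatr1, Rrp12, Rrp1b and Ddx21) and above 1.1 times that mean in 13. The shortest coding sequence among the 11 was 981 bases. Over the 47 genes the SETBP1 change fell with coding length, with a Spearman rho of -0.75 across genes, which are not independent replicates; over all genes it was -0.38. Without SETBP1 replicate 3 these were -0.66 and -0.24. Of the 24 members with coding sequences of 192 to 1740 bases, 18 rose with SETBP1 (median 0.35), and of the 23 with 1752 to 8367 bases 4 rose (median 0.06). Without that library, 20 and 5 rose, with medians of 0.31 and 0.14. For NRAS against empty the rho was 0.30 over the members and 0.02 over all genes, and 20 of the shorter and 17 of the longer genes rose.

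**Figure D4:**
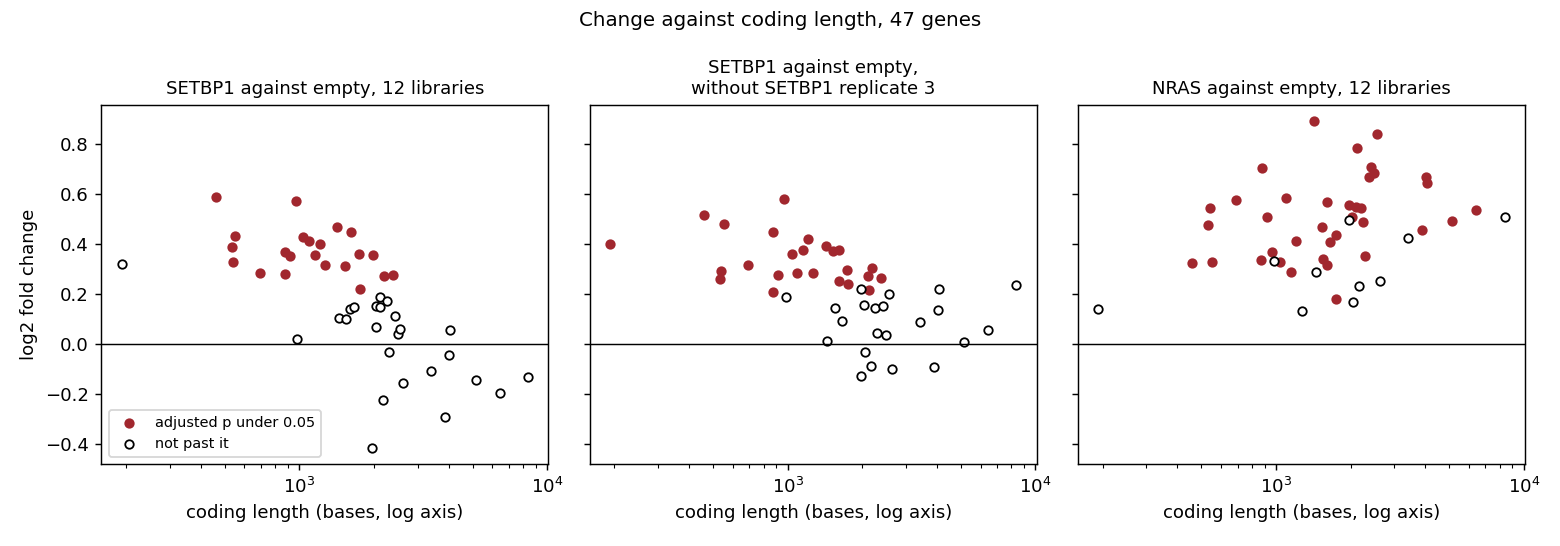
Log2 fold change (vertical) against coding length in bases (horizontal, log axis) for the 47 genes: SETBP1 against empty in 12 libraries, the same without SETBP1 replicate 3, and NRAS against empty. Filled points have an adjusted p under 0.05, and those of the first panel lie mostly to the left, among the shorter genes.

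Adding SETBP1 D868N to NRAS G12D changed no member at an adjusted p of 0.05 in edgeR, where 1.91% of all tested genes changed, 0.528% up and 1.38% down. The median log2 change was 0.08, with 38 of 47 above 0. At an unadjusted p of 0.05, 5 members were higher and none lower (Imp4, Wdr43, Pes1, Nop16 and Npm1), where 4.94% of tested genes were higher and 6.73% lower. Double-mutant libraries all lay above all NRAS libraries in 12 of 47 genes and below them in 1, Noc4l, against 12.3% and 12.9% of tested genes. Imp4 (GRCm38 chr1:34439851-34449356, plus strand), a protein that pairs the U3 snoRNA with the precursor, had the lowest p. It stood at 139, 143 and 137 normalised CPM in the empty libraries, 161, 162 and 186 with SETBP1, 184, 176 and 169 with NRAS and 222, 214 and 215 with both, with a log2 change of 0.30 (SE 0.07, adjusted p = 0.0577) against NRAS. Pes1, of the PeBoW complex, stood at 177, 182 and 184 with NRAS and 207, 210.1 and 212 with both (0.21, SE 0.06, adjusted p = 0.143). In both genes the double-mutant libraries lay apart from and above the NRAS libraries.

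SETBP1 replicate 3 belongs to neither of these groups, but all 12 libraries share 1 estimate of the spread in the fit. Without that library, 4 members rose with the second mutant, where 3.21% of tested genes did: Imp4 (0.30, SE 0.06, adjusted p = 0.00232), Npm1 (0.22, SE 0.06, adjusted p = 0.0157), Nop16 (0.24, SE 0.06, adjusted p = 0.0293) and Pes1 (0.21, SE 0.06, adjusted p = 0.0317). A fit to the 6 NRAS and double-mutant libraries alone called the same 4 genes, all higher, and 8.37% of all genes in either direction. DESeq2 called Imp4 and Pes1, both higher, and 3.45% of all genes in either direction. Counted in either direction, the members' shares in those fits lay near the background. The share of all genes that rose is not given for those fits.

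Adding NRAS G12D to SETBP1 D868N raised 30 of the 47 genes and lowered none, where 20.9% of tested genes rose and 21.5% fell. The median log2 change was 0.36. Those that rose were 3 of 3 nucleolar genes, 6 of 9 polymerase I genes, 10 of 14 large subunit and 7 of 12 small subunit factors, 2 of 4 box C/D and 2 of 5 H/ACA genes. The largest changes were in Ddx21 (0.86, SE 0.11, adjusted p = 3.41e-05), Rrn3 and Noc3l (0.80, SE 0.14, adjusted p = 5.66e-04). The NRAS change was measured in separate libraries on the empty and on the SETBP1 background. In 26 of the 47 genes (55.3%) both changes were called and upward, as in 12.5% of tested genes. The 26 include Ncl, Npm1, Ddx21, Rrp9, Nop2, Noc3l, Tcof1 and Mybbp1a. Of the shorter 24 members 9 rose and of the longer 23 members 21. Without SETBP1 replicate 3, 32 rose with NRAS added to SETBP1, where 23.6% of tested genes did, and Nop10 fell (-0.28, SE 0.10, adjusted p = 0.0241).

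The test of the interaction, the SETBP1 change with NRAS minus that without, called no member in edgeR, where it called 0.0455% of all tested genes. At an unadjusted p of 0.05, 12 members were called and all 12 were negative, where 7.59% of tested genes were negative and 5.33% positive. The lowest value was that of Nhp2 (-0.43, SE 0.14, adjusted p = 0.28), followed by Taf1d (-0.42, SE 0.14, adjusted p = 0.304) and Rrp9 (-0.39, SE 0.13, adjusted p = 0.287). These 3 also had the largest SETBP1 changes, and both values use the SETBP1 and empty libraries. The median over the 47 was -0.14. All 12 had coding sequences of at most 1740 bases. The interaction rose with coding length, with a Spearman rho of 0.73 over the members and 0.33 over all genes. Its median was -0.25 in the 24 shorter members and -0.004 in the 23 longer ones. Without SETBP1 replicate 3 the rho was 0.53 and 0.15, and the medians were -0.22 and -0.09. The part of coding length in the interaction was not tested.

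Of other genes of ribosome production, 115 from a wider list were tested, and their difference from the 47 was not tested. As background, 17% of all tested genes rose with NRAS, 8.31% with SETBP1 and 20.8% with both mutants, and 1.91% changed between both mutants and NRAS. With NRAS 71 of 115 rose and none fell (median 0.34), led by the export adaptor Nmd3 (log2 change 0.84, SE 0.10, adjusted p = 2.02e-05) and the methyltransferase Dimt1 (0.81, SE 0.11, adjusted p = 9.77e-05). With SETBP1 26 rose, led by the notchless homolog Nle1 (0.70, SE 0.14, adjusted p = 0.00784), and 1, Utp6, fell by 0.31 (SE 0.08, adjusted p = 0.0243). With both mutants 84 rose and 2 fell, Baz2a and Exosc5, and against NRAS none of the 115 passed in edgeR. The genes of the ribosomal proteins themselves, 76 tested, had 20 higher with SETBP1 (26.3%, median 0.26), 19 with NRAS (25%, 0.22) and 27 with both (35.5%, 0.25). For both mutants against SETBP1, 1 ribosomal protein gene rose and 4 fell (median -0.01), beside 30 of 47 members that rose. Of all tested genes, 20.9% rose and 21.5% fell there. Whether ribosomal protein genes and the 47 members differ in their changes was not tested.

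**Figure D5:**
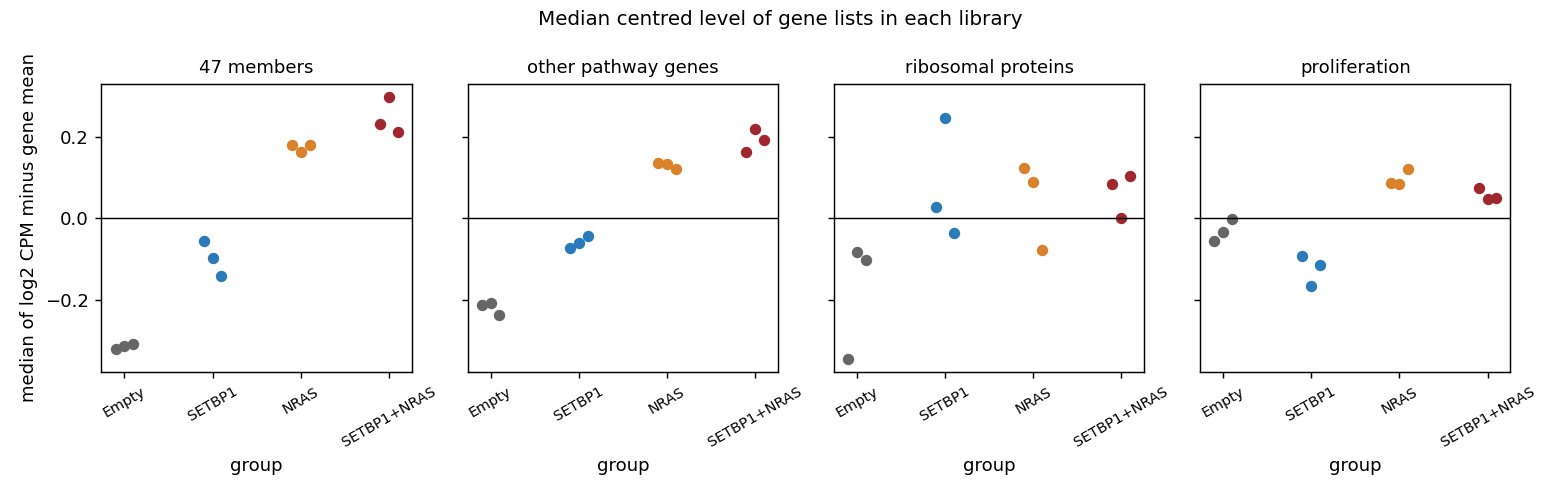
Median, over the genes of a list, of log2 normalised CPM minus the gene's mean, for each of the 12 libraries by group (points), in 4 panels: the 47 genes, other genes of ribosome production, ribosomal protein genes and proliferation genes. The first 2 panels step upward from empty to both mutants, and proliferation points are lowest with SETBP1. Ribosomal protein points of the mutant groups overlap one another, and all of them lie above the empty points, the nearest at -0.077 against -0.083.

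Proliferation genes, which often move with ribosome production, did not follow the members in every comparison. Of 21 tested, none rose and 3 fell with SETBP1 (median -0.10), 6 rose with NRAS (0.12) and 8 rose with both mutants against SETBP1 (0.21). The shares of all tested genes were 6.55% lower with SETBP1, 17% higher with NRAS and 20.9% higher with both against SETBP1. Myc, which encodes the transcription factor named above, stood at 518, 475 and 548 normalised CPM in the empty libraries and 604, 654 and 701 with SETBP1. It stood at 595, 632 and 593 with NRAS and 633, 681 and 666 with both. Every mutant library lay above every empty one, with log2 changes of 0.35 with SETBP1 (SE 0.07, adjusted p = 0.0109), 0.24 with NRAS (adjusted p = 0.0238) and 0.36 with both (adjusted p = 0.00153). The part of cell division or of Myc in the changes of the 47 genes was not tested.

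Intron-borne small nucleolar RNAs (snoRNAs) are a feature that the list of genes did not use. In the GENCODE M21 annotation of GRCm38, 7 of the 47 genes (14.9%) hold 27 snoRNAs, against 1.74% of tested genes and 1.74% of the other genes of ribosome production. The hosts are Taf1d with 8, Nop56 with 5, Nop58 with 4, Wdr43, Gnl3 and Ncl with 3 each and Dkc1 with 1. All 7 rose with NRAS and with both mutants, as did 37 of all 47 members (78.7%) in each comparison, where 17% and 20.8% of tested genes rose. Whether hosts differ from the other members was not tested. The snoRNAs themselves are not analysed here. Exons of 11 members, among them Taf1d, Nop56, Nhp2, Mybbp1a, Pes1, Noc2l, Gnl3 and Wdr12, overlap a gene on the opposite strand in that annotation, and without a stated strand rule their counts are uncertain.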

How the data were processed

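RNA-seq was done on 12 libraries of transduced mouse bone marrow, made with SMART-Seq chemistry for very low RNA input, per the labels' protocols. The authors deposited raw counts, whole numbers by gene symbol and library, without normalisation. STAR, DESeq2 and the build mm10 are named, without role or version, per the submitters' processing notes; the counting tool, strand rule and annotation are not given in the sources used here.

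From these counts, fold changes and SE were computed with edgeR 4.0.16 (limma 3.58.1, R 4.3.3). The steps were TMM scaling, filterByExpr (minimum count 10, minimum total 15), and the quasi-likelihood F test over all 12 libraries as 4 group means. Two-sided p-values were adjusted for the 10993 tested genes of a comparison by the Benjamini-Hochberg method, with calls at 0.05. DESeq2 1.42.0 served as an alternative, and the scripts were tested on simulated data. The other alternatives were 3 scalings, 2 filters on low counts, a fit to the compared groups only, a replicate term and each library left out.

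The 47 genes, the role groups and the other lists were chosen with earlier results of these data known. Values in every library were given for the most abundant gene and the gene with the lowest p for any difference in each role, and for the 3 that moved most, up or down, in a comparison. Those of Utp20, Imp4, Pes1, Gnl3 and Wdr12, and the genes listed by their SETBP1 replicate 3 level, were added after their values were seen. Coding lengths (longest CCDS sequence), gene coordinates and snoRNA hosts came from GENCODE M21, and promoters from RefSeq (GRCm38.p6).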

Additional observations from a re-analysis of the deposited data

How the results depend on the processing

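The direction of the members' median held under every alternative run in each comparison, and none of the 46 changes of the 15 genes chosen by rule reversed (901 of 920 refitted values kept their call). For SETBP1 against empty, the fit to those 6 libraries called 0 members and 1.03% of all genes. Leaving out 1 library gave 6 members (without empty replicate 3, 3.5% of all genes) to 25 (without SETBP1 replicate 3, 15.3%). Without SETBP1 replicate 1, Rrn3 was called lower. For both mutants against NRAS, DESeq2 called 2 members (Imp4 and Pes1), beside 3.45% of all genes. Library size scaling and upper-quartile scaling called 1 each (Imp4), beside 2.22% and 2.01%. The fit to the compared libraries called 4, beside 8.37%, and the fits without 1 library 0 to 4, beside 0.834% to 7.52%. Where members were called, their share lay near that of all genes. The cause of these shifts between fits was not tested. Leaving out 1 library gave 29 to 44 members for NRAS (24.1% to 47% of all genes tested), 34 to 44 for both mutants (32.8% to 53.7%) and 26 to 33 for both against SETBP1 (33% to 46.5%). In the last comparison Wdr12 or Nop10 was the 1 lower call in 5 of the alternatives. Scaling by library size moved the median of all genes to -0.10 for NRAS and -0.13 for both mutants. It called 27 and 32 members, beside 33.1% and 41.5% of all genes. A replicate block gave 20 members for SETBP1, 34 for NRAS, 37 for both mutants and 0 for both against NRAS. The shares of all genes called with the block were 10.7%, 30.4%, 38.9% and 1.49%. Same-numbered libraries did not deviate together (r from -0.13 to 0.12 over 18 pairs, with 1 of 12 libraries closest to its own number).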

Other observations

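Within the wider list, the share of genes that rose with NRAS varied by role. Whether any role differed from the same role in the 47 genes was not tested. Of all tested genes, 17% rose with NRAS. Of 9 other polymerase I genes tested, 3 rose with NRAS (median log2 change 0.02), and Baz2a, a silencer of ribosomal DNA repeats, fell by 0.42 with both mutants (SE 0.15, adjusted p = 0.0325). Of 7 other snoRNP genes 5 rose with NRAS (0.32). Of 38 other small subunit factors 24 rose with NRAS (0.41), and of 41 other large subunit factors 30 rose (0.34). Of 20 genes of the exosome and RNase MRP, which trim and cut precursor RNA, 9 rose with NRAS. Within that group Dis3 and Exosc5 moved in opposite directions. Dis3, an exosome nuclease, stood at 60.1, 60.7 and 65 normalised CPM in the empty libraries and 112, 104 and 106 with NRAS. Exosc5, a subunit of the exosome ring, stood at 139, 144 and 144 in the empty libraries, 150.1, 186 and 198 with SETBP1 and 114, 111 and 109 with both. Against SETBP1 it fell with both mutants by 0.67 on the log2 scale (SE 0.11, adjusted p = 2.78e-04), while Dis3 rose by 0.84 (SE 0.13, adjusted p = 1.58e-04).

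Max, which encodes the partner of MYC, was listed at 7.99 normalised CPM in NRAS replicate 3 and at 59.7 to 95.1 in the other 11 libraries. Mycn, a relative of Myc, fell with both mutants by 1.99 on the log2 scale (SE 0.35, adjusted p = 4.73e-04), from 9.18, 7.75 and 9.31 normalised CPM in the empty libraries to 1.40, 1.41 and 3.77.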
